A study of Mus musculus with 16 samples.

Results

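Respiratory complex I, the NADH:ubiquinone oxidoreductase of the inner mitochondrial membrane, was followed in muscle RNA through its nuclear genes. All genes with a symbol starting with Nduf were taken, which gave 47 of the 12021 genes listed in the table. Their symbols fell into 11 core symbols (8 Ndufs and 3 Ndufv), 28 accessory symbols (15 Ndufa with Ndufab1, 11 Ndufb and 2 Ndufc) and 8 assembly factors (Ndufaf1 to Ndufaf8). The annotation held 51 such symbols, and Ndufa11b, Ndufab1-ps, Ndufb1-ps and Ndufs6b were not among the listed genes. All 47 listed members passed the filter on low values.

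RNA depleted of ribosomal RNA was sequenced from tibialis anterior, a mostly fast shin muscle, in control mice and in mice with cancer cachexia, in which a tumour causes loss of muscle and fat. For each of 4 models (KPP, KPC, C26, LLC) there were 2 control and 2 cachectic libraries, 16 in all. KPP and LLC mice were labelled C57BL/6J, C26 mice CD2F1 and KPC mice mixed, so model and labelled strain cannot be told apart except between KPP and LLC. The labels give neither tumour alleles, ages, cell doses nor time points, and they do not say whether the 2 libraries of a group came from separate animals, so p-values measure the spread between these samples, which may be technical. Library totals over the listed genes lay between 28584279 and 46972882 reads.

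Complex I takes electrons from NADH at the tip of its matrix arm, passes them along iron-sulfur clusters to ubiquinone, and pumps protons through its membrane arm. The catalytic core is encoded partly in the nucleus and partly in mitochondrial DNA, and accessory subunits surround it. Assembly factors build the modules and leave before the enzyme is finished. In muscle it takes up NADH from the oxidation of carbohydrate and fat. Symbols do not follow these roles exactly. Of the 11 core symbols, 7 encode catalytic core subunits, whereas Ndufs4, Ndufs5, Ndufs6 and Ndufv3 encode accessory subunits. Ndufa4 encodes a protein now counted in complex IV, Ndufa4l2 is its paralog, and Ndufb4c is a processed copy of Ndufb4 whose reads cannot be cleanly separated from it.

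Promoter windows from RefSeq (build GRCm38.p6, 250 bases before to 50 after the start of the gene) were found for 40 of the 47 members. They were searched on both strands for motifs of 4 factors known to act on respiratory genes. GCGCNTGCG, the NRF1 motif, stood in the windows of 11 of 40 members (27.5%), against 15.65% of the 8891 listed genes with a window and 6.31% of all 32851 windows. AAGATGGCG, the YY1 motif, stood in 6 of 40 (15%) against 3.88% of listed genes and 1.4% of all windows. CCGGAAG, the GABP motif, stood in 6 of 40 (15%) against 20.47% and 8.86%, and TNAAGGTCA, an ERR motif, in 1 of 40 (2.5%) against 0.87% and 1.28%. The NRF1 motif is close to its own reverse complement, so that one stretch can match on both strands a base apart, as in Ndufaf4. Other overlaps between motifs were not counted. Shown are the 250 bases before the RefSeq start of Ndufa8 and Ndufb10, which fell in both C26 and LLC. Those of Ndufb4 and Ndufaf4 follow, which carry the same motif and were called in no comparison. Letters run 5′ to 3′ on the strand of the gene, and capitals mark NRF1 matches and, in Ndufb4, also the ERR match.
Ndufa8, chr2:36049339-36049588, minus strand: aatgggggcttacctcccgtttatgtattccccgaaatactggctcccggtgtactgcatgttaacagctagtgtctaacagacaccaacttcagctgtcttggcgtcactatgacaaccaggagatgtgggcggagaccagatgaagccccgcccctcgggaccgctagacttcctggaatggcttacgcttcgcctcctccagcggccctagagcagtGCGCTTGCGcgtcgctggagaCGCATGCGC
Ndufb10, chr17:24724424-24724673, minus strand: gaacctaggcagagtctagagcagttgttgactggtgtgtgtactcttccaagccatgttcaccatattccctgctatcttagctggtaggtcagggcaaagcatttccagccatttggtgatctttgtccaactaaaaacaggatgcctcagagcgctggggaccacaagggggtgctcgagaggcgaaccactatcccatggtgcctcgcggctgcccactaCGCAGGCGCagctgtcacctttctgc
Ndufb4, chr16:37654369-37654618, minus strand: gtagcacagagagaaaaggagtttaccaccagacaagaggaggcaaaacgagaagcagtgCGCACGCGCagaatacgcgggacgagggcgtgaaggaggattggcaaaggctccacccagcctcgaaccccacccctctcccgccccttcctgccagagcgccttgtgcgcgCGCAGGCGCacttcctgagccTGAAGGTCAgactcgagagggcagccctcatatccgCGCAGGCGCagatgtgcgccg
Ndufaf4, chr4:24897833-24898082, plus strand: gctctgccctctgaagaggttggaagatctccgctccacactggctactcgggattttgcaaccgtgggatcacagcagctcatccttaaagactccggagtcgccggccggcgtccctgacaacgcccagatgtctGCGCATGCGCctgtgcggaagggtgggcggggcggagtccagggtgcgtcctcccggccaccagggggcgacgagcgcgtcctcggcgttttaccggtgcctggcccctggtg
Counted from the RefSeq start of the gene, the matches began at -30 and -9 in Ndufa8 and at -26 in Ndufb10. They began at -190, -78 and -21 in Ndufb4, with the ERR match at -57, and at -113 and -112 in Ndufaf4. GENCODE M21, the annotation behind the gene spans given below, places the start of Ndufa8 at 36049406 and of Ndufb10 at 24724478. For Ndufb4 it gives 37654453. By those starts the matches in Ndufa8 and Ndufb10, and all but that at -190 in Ndufb4, lie inside the gene. Averaged over the models, the median log2 change was -0.29 for the 11 members with an NRF1 match and -0.43 for the 29 without. A match is a run of letters and says nothing of binding.

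Complex I genes were lower in cachectic muscle over the models as a whole. In the mean of the 4 models, each cachectic minus its own control, 39 of the 47 members fell and 0 rose (limma, adjusted p under 0.05 by Benjamini-Hochberg over all listed genes). Of all listed genes, 13.8% fell and 27.3% rose. With each library centred on its median, 42 members fell, and of all listed genes 2255 fell and 2383 rose, against 1654 and 3284 on the deposited scale. At an unadjusted p under 0.05 no member was higher and 42 were lower, against 51.2% of all listed genes in either direction. The median change of the members was -0.40 on the log2 scale, a ratio of 0.760, and the median of all listed genes was 0.10. Values are on the deposited log2 scale, the log2 of counts per 1000000 counts over the listed genes (log2 CPM), and a change is the difference of group means of n = 2 libraries, given as ± SE. Whether a lower value means less RNA per fibre or fewer fibres and mitochondria cannot be told apart in whole muscle. Markers of other cells moved in the mean as well. All 6 erythroid markers rose, with a summed level of 329 to 3296 CPM in cachectic against 144 to 292 in control libraries, and so did 7 of 9 macrophage markers (77.3 to 264 against 58.6 to 139). Of 8 endothelial markers 5 rose and 1 fell (490 to 698 against 412 to 513), and of 8 fibroblast markers 6 fell (307 to 1160.5 against 908 to 2412). Of 8 listed slow and oxidative fibre markers 2 fell and 2 rose (618 to 2471 against 1000.8 to 3137). Myh2 was the highest of these 8 in every library and weighs most in their summed level, here and within each model. The part of these markers in the members' values was not tested.

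The class means show the same groups library by library. Over the 47 members the mean log2 level was 5.91 and 5.96 in KPP controls against 5.52 and 5.47 in the cachectic libraries. In C26 it was 5.92 and 5.93 against 5.56 and 5.45, and in LLC 5.89 and 5.80 against 5.37 and 5.60. In KPC the controls lay at 5.85 and 5.98, and the cachectic libraries lay apart from each other, at 5.32 and 5.83. KPC cachectic 2 was thus close to the controls, and KPC cachectic 1 was the lowest of all 16 libraries. As a share of reads, the members took 0.435% to 0.501% in the 8 control libraries. They took 0.302% to 0.389% in the cachectic libraries other than KPC cachectic 2, which held 0.444%.

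**Figure D1:**
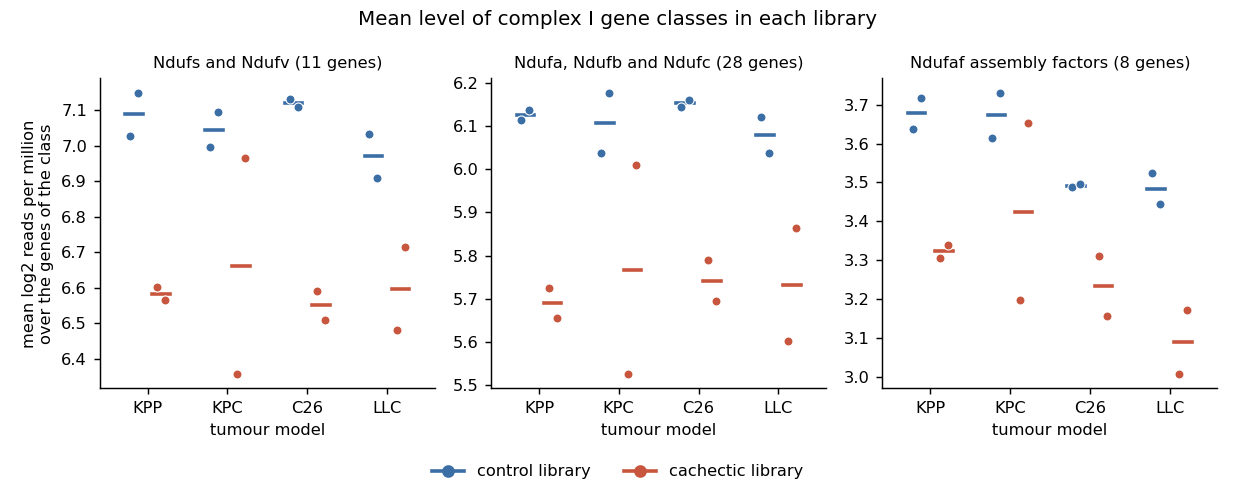
Mean log2 CPM over the genes of each class (vertical axis) in every library, by tumour model; points are libraries and bars are means of 2 libraries. KPC cachectic 2, at 6.96 for the core symbols, lies beside its controls (6.99 and 7.09), whereas KPC cachectic 1 lies at 6.36.

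The median change of core symbols was -0.43 in KPP, -0.41 in KPC, -0.55 in C26 and -0.43 in LLC. The accessory symbols had medians of -0.46, -0.34, -0.47 and -0.36 in the same order, and the assembly factors -0.34, -0.23, -0.35 and -0.39. The median of all listed genes was 0.00 in KPP, 0.01 in KPC, 0.28 in C26 and 0.10 in LLC. In the mean of the 4 models, 11 of 11 core symbols, 23 of 28 accessory symbols and 5 of 8 assembly factors fell. By place in the enzyme, 14 of 16 matrix arm and 18 of 20 membrane arm members fell. The 20 include Ndufb4c, a processed copy of a membrane arm gene, which was not called. The classes were not tested against each other. Core minus accessory, within a library, was 0.87 to 1.01 in the 8 controls, 0.80 and 0.82 in the C26 cachectic libraries and 0.83 to 0.96 in the other cachectic libraries, so the range of the controls overlapped that of the other models' cachectic libraries.

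C26 gave most of the calls within a model. There, 21 of 47 members fell and 0 rose, while 5.12% of all listed genes fell and 23.2% rose. At an unadjusted p under 0.05, 30 members were lower and 1 higher, against 44.4% of all listed genes in either direction. The members that fell were 7 core symbols, 13 accessory symbols and 1 assembly factor. In 40 members both cachectic libraries lay below both controls and in 3 both lay above, against 16.9% and 59.6% of all listed genes. The median member change was -0.52, a ratio of 0.699. With each library centred on its median, 30 members fell, among them all 21, while 1112 of all listed genes fell and 840 rose, against 615 and 2794 on the deposited scale. No C26 call survived leaving out every one of the 4 C26 libraries in turn: 0 members fell without C26 control 1, control 2 or cachectic 2, where 0.399%, 0.749% and 1.04% of all listed genes fell, and 5 (Ndufa12, Ndufa8, Ndufaf7, Ndufb10 and Ndufs8) fell without cachectic 1, where 2.55% did.

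Other transcripts moved in the C26 libraries too. Macrophage markers rose in 8 of 9, with a summed level of 255 to 264 CPM in cachectic against 95.4 to 115 in control libraries. Endothelial markers rose in 5 of 8, at 682 to 698 against 451 to 473. Erythroid markers rose in 3 of 6, at 382 to 1151 against 255 to 272, and of 8 fibroblast markers 2 fell and 1 rose, at 888 to 1160.5 against 1800.3 to 2412. Of the muscle markers, 10 of 10 listed, 2 fell and 1 rose, at 285460 to 296410 against 280310 to 281440. Of 8 listed slow and oxidative fibre markers 1 fell and 0 rose, with 5 negative and 3 positive changes. Their summed level was lower, at 1899.7 to 2169.5 against 2715.9 to 3137.4. The part of these markers in the fall of the members was not tested.

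In KPP all 47 changes were negative, and 0 members passed the threshold in either direction, with 1.07% of all listed genes falling and 0.707% rising. Centring left 0 members called, with 90 genes falling and 104 rising against 129 and 85. At an unadjusted p under 0.05, 30 members were lower and 0 higher, against 21.1% of all listed genes in either direction. In 42 members both cachectic libraries lay below both controls, and in 0 above, against 29.7% and 28.9% of all listed genes. Ndufa1, a small membrane arm subunit, came nearest, with levels of 5.31 and 5.33 in controls and 4.88 and 4.75 in cachectic libraries (-0.50 ± 0.12, limma adjusted p = 0.0550). Fitted to the 4 KPP libraries alone, 28 members fell, and 5.24% of all listed genes did. Beside this, fibroblast markers fell in 5 of 8 (summed level 307 to 392 against 908 to 944 CPM). Of 8 listed slow and oxidative fibre markers 3 rose and 0 fell, with 6 positive and 2 negative changes. Their mean log2 level was 6.35 and 5.11 in cachectic against 4.52 and 4.41 in control libraries. Their summed level (1903 to 2471 against 1792 to 2800.4 CPM) was set largely by Myh2, at 10.90 and 10.73 against 10.70 and 11.39 log2 CPM. The sum therefore says little of the other markers. The part of these markers in the members' values was not tested.

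In KPC no gene of the table was called, so the background was 0% in both directions and 0 members were called by limma. At an unadjusted p under 0.05, 16 members were lower and 0 higher, against 8.61% of all listed genes in either direction. Of the 47 changes, 43 were negative. Both cachectic libraries lay below both controls in 25 members and above in 2, against 22% and 15.8% of all listed genes. Without KPC cachectic 2, 22 members fell, against 3.86% of all listed genes, and the median change was -0.56. Without KPC cachectic 1 no member was called and the median was -0.06. In both fits the lone cachectic library is assumed to vary like the other groups. The KPC values therefore rest on which of the cachectic libraries is counted.

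In LLC 2 members fell, Ndufa8 and Ndufb10, and 0 rose, against 3.66% and 3.42% of all listed genes, and 45 of 47 changes were negative. At an unadjusted p under 0.05, 20 members were lower and 1 higher, against 29.3% of all listed genes in either direction. With TMM scaling and voom weights, 2 members fell, with 630 genes falling and 368 rising against 440 and 411. Both cachectic libraries lay below both controls in 39 members and above in 1, against 23.6% and 33.8% of all listed genes. Both calls were lost without LLC control 1, control 2 or cachectic 1, whereas 16 members fell without LLC cachectic 2, which lay nearer the controls, and 10.8% of all listed genes fell in that fit. All 6 erythroid markers rose in LLC, with a summed level of 1603 to 3296 against 144 to 164 CPM. Fibroblast markers fell in 4 of 8, at 370 to 592 against 1535 to 1702. Of 8 listed slow and oxidative fibre markers 1 fell and 0 rose, with 4 negative and 4 positive changes. Their summed level was lower, at 618 to 806 against 1217 to 2157. The part of these markers in the members' values was not tested.

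No member was found to differ between the models. In the F test of the differences between the 4 changes 0 members passed, against 0.116% of all listed genes, and 2 had an unadjusted p under 0.05, against 15.9%. In the 6 pairwise differences 0 members passed. The background was 0.025% of listed genes for KPP against KPC, 0.299% for KPP against C26, 0.0333% for KPP against LLC, 0.0582% for KPC against C26, 0% for KPC against LLC and 0.116% for C26 against LLC. Between 0 and 3 members had an unadjusted p under 0.05 in a pair, against 6.18% to 20.6% of all listed genes. Without KPC cachectic 2 and LLC cachectic 1, a choice made after the data were seen, 7 members passed the F test (Ndufa11, Ndufa2, Ndufaf4, Ndufb5, Ndufc1, Ndufc2 and Ndufs1) and 14.8% of all listed genes did, a share like that of the members. In that fit the lone KPC cachectic library is assumed to vary like the other groups. Ndufc1, for example, then changed by -1.59 in KPC and -0.20 in LLC. A difference that misses the threshold is not shown to be absent. In sign, 39 members were negative in all 4 models, which held for 14.8% of all listed genes, 6 were negative in 3 and 2 were negative in 2.

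**Figure D2:**
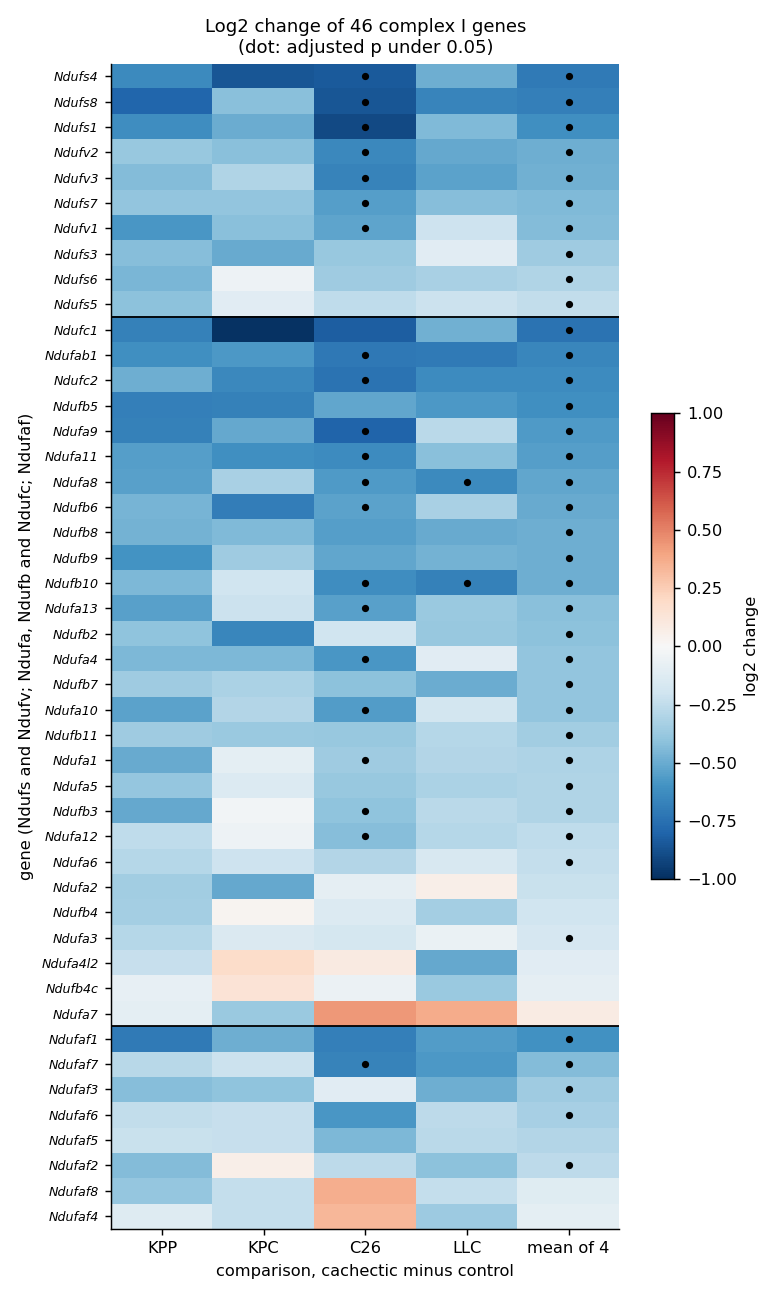
Log2 change, cachectic minus control, of 46 of the 47 members (rows, ordered within class by mean change) in the 4 models and in their mean (columns); colour gives the change, and a black dot marks an adjusted p under 0.05. The column for the mean holds 38 dots, C26 holds 21, LLC holds 2, and KPP and KPC hold none.

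The catalytic subunits of the NADH-oxidizing tip fell in C26 and in the mean. Ndufs1, the large iron-sulfur subunit of that module, lay at 8.67 and 8.82 in KPP controls and 8.07 and 8.18 in KPP cachectic libraries, at 8.56 and 8.63 against 7.62 and 8.58 in KPC, at 8.69 and 8.60 against 7.69 and 7.79 in C26, and at 8.54 and 8.41 against 7.85 and 8.21 in LLC. The groups did not overlap in KPP, C26 or LLC, and KPC cachectic 2 lay between its controls. Ndufs1 fell in C26 (-0.90 ± 0.23, adjusted p = 0.0186, ratio 0.534) and in the mean (-0.62 ± 0.12, adjusted p = 0.00240). Ndufv1, which binds NADH and the flavin, fell in C26 (-0.53 ± 0.18, adjusted p = 0.0490), with controls at 7.98 and 7.88 and cachectic libraries at 7.37 and 7.44. Ndufv2, its iron-sulfur partner, fell there as well (-0.65 ± 0.19, adjusted p = 0.0261), from 8.01 and 8.01 to 7.48 and 7.26. In both the cachectic libraries lay clear of the controls.

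In the ubiquinone-binding module the member with the smallest adjusted p in C26 and in the mean was Ndufs8, an iron-sulfur subunit encoded on chromosome 19 between 3908863 and 3912774 (GRCm38, minus strand). Its levels were 6.47 and 6.51 against 5.74 and 5.66 in KPP, 6.35 and 6.46 against 5.59 and 6.39 in KPC, 6.61 and 6.74 against 5.94 and 5.70 in C26, and 6.49 and 6.44 against 5.66 and 5.95 in LLC, controls first. Ndufs8 fell by 0.86 on the log2 scale in C26 (SE 0.21, adjusted p = 0.0144) and by 0.68 in the mean (SE 0.10, adjusted p = 0.000925). Only in KPC did the groups overlap. Ndufs7, which carries the last iron-sulfur cluster before ubiquinone, fell in C26 (-0.55 ± 0.19, adjusted p = 0.0476). Ndufs3, a subunit of the same module, missed the threshold in C26 (-0.38 ± 0.15, adjusted p = 0.0768) and fell in the mean (-0.36 ± 0.08, adjusted p = 0.00436).

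The accessory subunits with Ndufs and Ndufv symbols all fell in the mean, and Ndufs4 and Ndufv3 fell in C26. Ndufs4, a late-joining subunit of the matrix arm whose loss in mice causes a disease like Leigh syndrome, had C26 controls at 5.96 and 5.80 and cachectic libraries at 5.01 and 5.07 (-0.84 ± 0.25, adjusted p = 0.0294). In KPC its cachectic libraries lay at 4.91 and 5.93 against controls at 6.22 and 6.33, below them in both. Ndufs4 fell by 0.70 in the mean (SE 0.12, adjusted p = 0.00177, ratio 0.614). Ndufv3 changed by -0.67 ± 0.17 in C26 (adjusted p = 0.0188).

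Ndufa8 and Ndufb10 belong to the subunits on the intermembrane-space side, where they are held by disulfide bonds. Ndufa8 lies on chromosome 2 between 36036326 and 36049406 and Ndufb10 on chromosome 17 between 24722060 and 24724478 (GRCm38, both minus strand). In LLC, Ndufa8 lay at 6.41 and 6.40 in controls and at 5.61 and 5.93 in cachectic libraries (-0.64 ± 0.16, adjusted p = 0.0398). Ndufb10 lay at 7.0 and 7.12 against 6.17 and 6.60 (-0.67 ± 0.18, adjusted p = 0.0431). In C26 both fell, Ndufa8 from 6.59 and 6.65 to 6.18 and 5.93 (adjusted p = 0.0262) and Ndufb10 from 7.09 and 7.30 to 6.73 and 6.41 (adjusted p = 0.0258). In KPP they were also below the controls without overlap, Ndufa8 at 5.95 and 5.81 against 6.42 and 6.43 and Ndufb10 at 6.68 and 6.55 against 7.08 and 7.04. In KPC, Ndufb10 overlapped (6.50 and 6.94 against 6.88 and 6.96), and Ndufa8 did not (5.87 and 6.34 against 6.42 and 6.43).

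**Figure D3:**
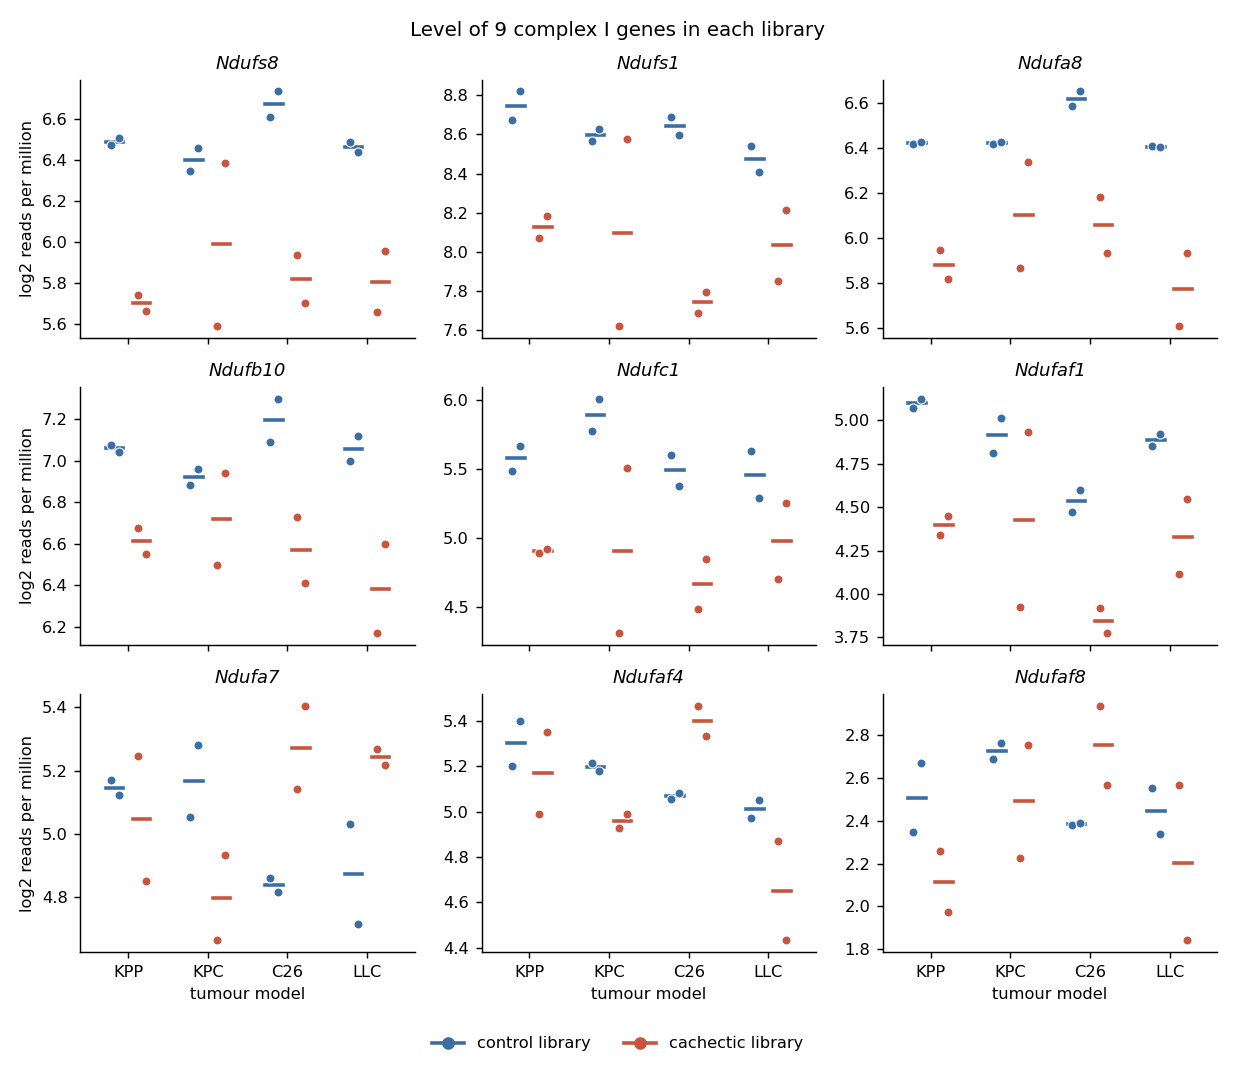
Log2 CPM (vertical axis) of 9 members in every library, by tumour model; points are libraries and bars are means of 2 libraries, and each panel has its own range. In the top row all C26 cachectic libraries lie below the controls, whereas in the bottom row Ndufa7, Ndufaf4 and Ndufaf8 lie above them in C26.

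Among other accessory genes, Ndufab1 encodes the mitochondrial acyl carrier protein, which sits in both arms and also serves fatty acid synthesis. It fell in C26 (-0.71 ± 0.20, adjusted p = 0.0246) and in the mean (-0.65 ± 0.10, adjusted p = 0.000957), and it missed the threshold in LLC (-0.70 ± 0.20, adjusted p = 0.0526). Its LLC levels were 6.41 and 6.33 in controls and 5.45 and 5.87 in cachectic libraries. Ndufa9, at the junction of the arms, fell in C26 (-0.80 ± 0.20, adjusted p = 0.0159), from 7.22 and 7.04 to 6.31 and 6.34. The largest change of any member in the mean was that of Ndufc1, a membrane arm subunit (-0.74 ± 0.15, adjusted p = 0.00362, ratio 0.598). Its KPC cachectic libraries lay apart, at 4.31 and 5.51, both below the controls at 5.78 and 6.01.

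Further accessory members kept to the same direction. In C26, Ndufa10 (-0.56 ± 0.16, adjusted p = 0.0248) and Ndufb3 (-0.41 ± 0.12, adjusted p = 0.0314) of the membrane arm fell. So did Ndufa1 (-0.36 ± 0.12, adjusted p = 0.0466) and Ndufb6 (-0.54 ± 0.19, adjusted p = 0.0479). Ndufb6 shares 39.0% of its exon bases with Smim27 on the opposite strand, and the strand setting of the counting is not given in the sources used here, so its reads are uncertain. Ndufb2 fell in the mean only (-0.41 ± 0.11, adjusted p = 0.0106; C26 -0.20 ± 0.21). Ndufa4, now placed in complex IV, fell in C26 (-0.58 ± 0.18, adjusted p = 0.0345).

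A few members had small changes on the deposited scale. Ndufb4 and its copy Ndufb4c had C26 changes of -0.14 ± 0.15 and -0.06 ± 0.18, and mean changes of -0.20 ± 0.08 (adjusted p = 0.0515) and -0.09 ± 0.09. Their KPC cachectic libraries lay at 6.68 and 6.59 against 6.56 and 6.65 for Ndufb4, and at 3.50 and 3.46 against 3.31 and 3.37 for Ndufb4c. Neither showed the low value of KPC cachectic 1 that Ndufc1 and Ndufs1 showed. Ndufa2, a thioredoxin-like subunit of the matrix arm, had changes of -0.35 ± 0.17 in KPP, -0.51 ± 0.17 in KPC, -0.09 ± 0.17 in C26 and 0.06 ± 0.17 in LLC, with a mean of -0.22 ± 0.08 (adjusted p = 0.0507). With libraries centred on their medians, the means of Ndufa2 (-0.29, limma adjusted p = 0.0244) and Ndufb4 (-0.27, adjusted p = 0.0163) passed. Ndufa4l2, a paralog induced by hypoxia and low in muscle, lay between 2.08 and 2.94 in all libraries, and its C26 change of 0.09 ± 0.22 turned to -0.15 when libraries were centred on their medians. Ndufa3 was called only narrowly in the mean (-0.17 ± 0.06, adjusted p = 0.0414).

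Ndufa7, an accessory subunit of the matrix arm, was chosen for description after its values were seen. It lay on chromosome 17 between 33824572 and 33838317 (plus strand) and had the only positive mean among the members (0.08 ± 0.08, adjusted p = 0.428), which turned negative with quantile normalization and with TMM, where all 47 were negative. Its levels were 5.17 and 5.12 against 5.25 and 4.85 in KPP, 5.05 and 5.28 against 4.66 and 4.93 in KPC, 4.86 and 4.82 against 5.14 and 5.41 in C26, and 5.03 and 4.72 against 5.27 and 5.22 in LLC, controls first. Both cachectic libraries thus lay above both controls in C26 and LLC and below them in KPC. No change of Ndufa7 passed the threshold (C26 0.43 ± 0.17, adjusted p = 0.0667), and centring on the library median brought the C26 change to 0.20.

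The assembly factors were a mixed group. Ndufaf1, a member of the complex that builds the membrane arm, changed by -0.61 ± 0.12 in the mean (adjusted p = 0.00332), from 4.85 and 4.92 to 4.12 and 4.55 in LLC, and it missed the threshold in C26 (-0.69 ± 0.25, adjusted p = 0.0548). Ndufaf7, a methyltransferase of the matrix, fell in C26 (-0.67 ± 0.20, adjusted p = 0.0298), from 3.34 and 3.39 to 2.86 and 2.53. Its mean change was -0.43 ± 0.10 (adjusted p = 0.00585). Ndufaf1 and Ndufaf7 lay below the controls without overlap in C26 and LLC.

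The remaining factors divided further. Ndufaf3, an early factor of the ubiquinone module, fell in the mean (-0.36 ± 0.08, adjusted p = 0.00578). Ndufaf6 (-0.33 ± 0.11, adjusted p = 0.0249) and Ndufaf2, a late factor related to Ndufa12 (-0.26 ± 0.10, adjusted p = 0.0496), fell too, the latter close to the threshold. The annotated exons of Ndufaf2 are shared to 65.6% with a transcript on the opposite strand. Ndufaf5, which hydroxylates Ndufs7, missed the threshold (-0.29 ± 0.11, adjusted p = 0.0525), as did Ndufaf4, the partner of Ndufaf3 (-0.10 ± 0.08, adjusted p = 0.324), and Ndufaf8, which stabilizes Ndufaf5 (-0.12 ± 0.12, adjusted p = 0.432). Ndufaf4 lay at 5.06 and 5.08 in C26 controls and 5.47 and 5.33 in cachectic libraries, but at 4.97 and 5.05 against 4.87 and 4.43 in LLC. Ndufaf8 lay at 2.38 and 2.39 against 2.94 and 2.57 in C26, and at 2.35 and 2.67 against 2.26 and 1.98 in KPP. Their C26 changes (0.33 ± 0.16 and 0.37 ± 0.25) did not pass, and centring on the library median brought them to 0.09 and 0.13.

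Levels per length put assembly factors well below subunits. On the log2 scale of CPM per kilobase of annotated exon, the median over the 8 control libraries was 6.14 for the core symbols, 5.98 for the accessory symbols and 2.95 for the assembly factors. Ndufb9, a membrane arm subunit, was the highest at 8.05 (8.01 to 8.26). Ndufa4 lay below it at 7.26 (7.05 to 7.42), and their ranges did not overlap. Lowest were Ndufaf2 at 0.30 (0.04 to 0.49) and Ndufb2 at 0.49 (0.15 to 0.78), which overlapped. Long annotated exons, 5628 bases in Ndufb2, lower a value per kilobase. Before division by length Ndufb2 was already low, at 2.64 to 3.28 log2 CPM in controls. Of its exon bases 2.6% are shared with Gm42420 on the same strand, and the effect on its count was not tested.

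The 7 complex I subunits encoded in mitochondrial DNA moved partly with the nuclear members. All 7 fell in the mean, 6 fell in C26 and 2 in LLC, against 13.8%, 5.12% and 3.66% of all listed genes. mt-Nd1, next to the ubiquinone channel, fell in C26 (-0.92 ± 0.20, adjusted p = 0.0112) and in LLC (-0.84 ± 0.20, adjusted p = 0.0358), and mt-Nd2 in LLC (-0.76 ± 0.21, adjusted p = 0.0485). In KPP none passed, with a median of -0.58. In KPC the median was 0.04, against -0.32 for the 47 nuclear members. Mean over the mitochondrial genes, KPC cachectic libraries lay at 9.49 and 10.04 against 9.87 and 9.78 in controls. The difference between nuclear and mitochondrial genes was not tested.

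The other named assembly factors of complex I, 12 of 13 listed, had a median mean change of -0.24, and 7 fell, against 13.8% of all listed genes. Dmac2, needed for the distal membrane arm, changed by -0.83 ± 0.22 in C26 (adjusted p = 0.0188) and by -0.51 ± 0.11 in the mean (adjusted p = 0.00371). Ecsit (-0.27 ± 0.06, adjusted p = 0.00635) and Tmem126a (-0.42 ± 0.10, adjusted p = 0.00713) fell in the mean. Of the 41 listed subunits of complexes II to V, 38 fell and 1 rose in the mean, with a median of -0.46. Of all listed genes 13.8% fell and 27.3% rose there. In C26 18 of the 41 fell and in LLC 0, where 5.12% and 3.66% of all listed genes fell. Members minus complexes II to V, within a library, was -1.71 to -1.60 in controls and -1.65 to -1.48 in cachectic libraries. Within KPP (-1.59 and -1.56 against -1.60 and -1.63), C26 (-1.57 and -1.65 against -1.71 and -1.70) and LLC (-1.58 and -1.6315 against -1.6344 and -1.6327) both cachectic libraries lay above both controls, in LLC by little, and in KPC (-1.48 and -1.6013 against -1.61 and -1.5981) the groups overlapped. The difference was not tested.

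**Figure D4:**
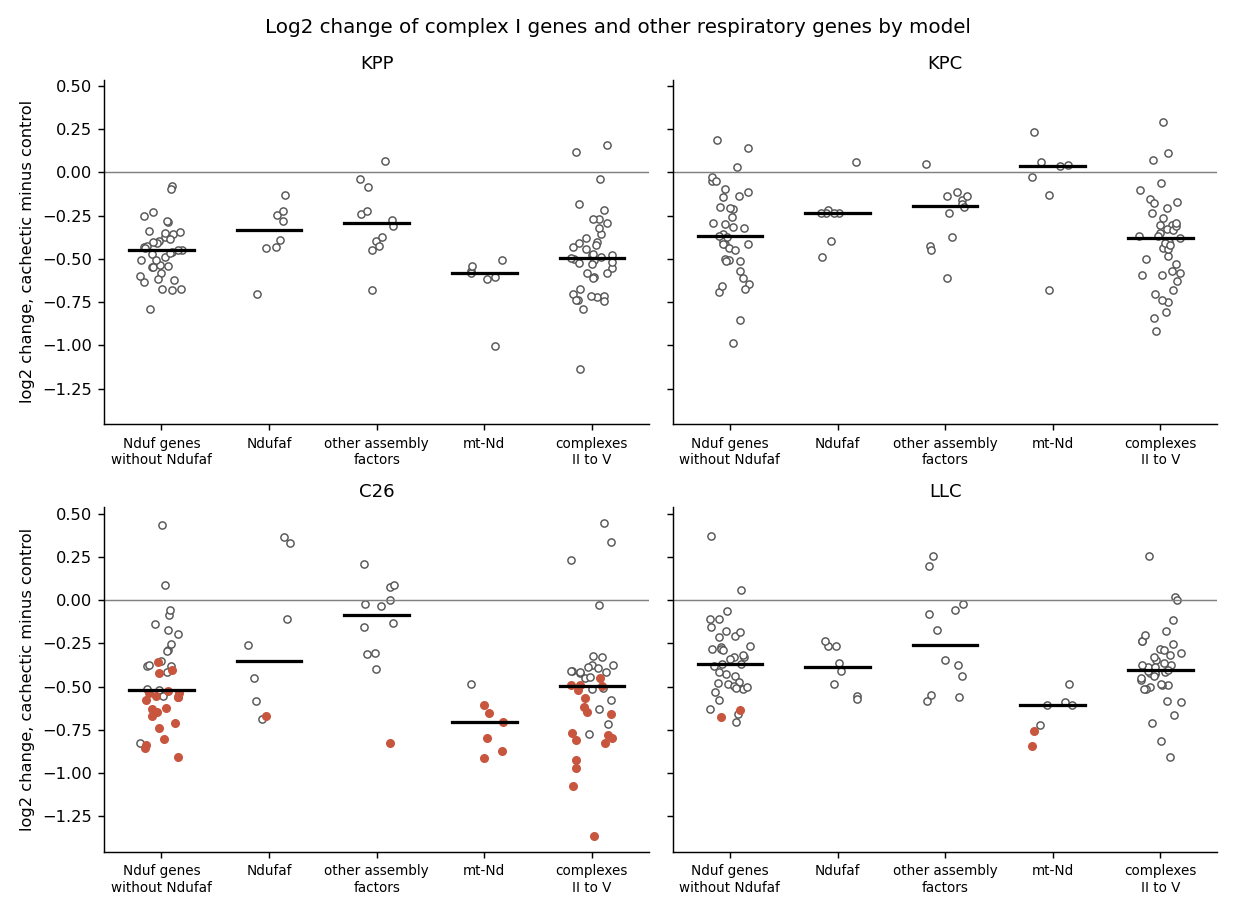
Log2 change, cachectic minus control (vertical axis), of the Nduf genes, the Ndufaf factors, other complex I assembly factors, mitochondrial complex I genes (mt-Nd) and subunits of complexes II to V, one panel per model; each point is a gene, filled points have an adjusted p under 0.05, and bars are medians. In KPC the mt-Nd median is 0.04 and the other medians are negative.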

How the data were processed

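The authors deposited 1 table of log2 values for 12021 genes in 16 libraries. Per the submitters' processing notes, GRCm38 was the build, and featureCounts 1.4.5 and limma were used. The name of the deposited table points to TopHat as the aligner; its version, the annotation, strand setting and low-value filter were not given in the sources used here. All log2 values follow the voom formula: 100% of them gave whole reads (tolerance 1e-04) once 0.5 per count and 1 per total were allowed for. They are scaled by library total only, so a change is relative to all listed genes. The depth, 28584279 to 46972882 reads, leaves little counting error in all but the lowest members.

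Samples were grouped by title. Ensembl identifiers were matched to GENCODE M21, and 11990 genes had a symbol. A filter (log2 of 0 or more in 2 or more libraries) removed no gene. On the deposited values, limma 3.58.1 in R 4.3.3, fitted once with group means and a trend, gave each model's change, their mean, an F test and 6 pairwise differences, two-sided, adjusted by Benjamini-Hochberg over 12021 genes. The 8 groups share the spread because each has 2 libraries. Same-numbered libraries did not deviate together (correlations -0.04 to 0.09), so numbers were not taken as pairs. The code was tested on simulated data.

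The members, classes and gene lists were chosen with earlier results of these data known. Named genes were the catalytic subunits, the Ndufaf factors, Ndufa4 and Ndufa4l2, members called higher or in the F test, the remaining members with the smallest p (8 in C26, 4 in each other comparison), the 4 with p nearest 1 in C26, and up to 3 genes of other lists; Ndufa3 and Ndufa7 are named besides, and 1 gene of the rule is not reported here. Alternatives were quantile normalization, centring on the median, voom or vooma weights, TMM, robust variances, no trend, a stricter filter, a replicate block, other thresholds, a model's 4 libraries alone, and libraries or models left out; leaving out KPC cachectic 2 with LLC cachectic 1 was chosen after seeing the data.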

Additional observations from a re-analysis of the deposited data

Results flagged for a closer look

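In 5 members both cachectic libraries lay above both controls in one model and below both in another, which was 7 pairs of models in all. The share of all listed genes with such opposite orders was not counted, so this count has no background. Within a single model, both cachectic libraries lay above both controls in 15.8% to 59.6% of all listed genes and below in 16.9% to 29.7%. These differences did not pass limma's F test of the differences between models, so they are given as values. For Ndufa7 the change in C26 minus that in KPC was 0.80 and in LLC minus KPC 0.74 (F test adjusted p = 0.218). For Ndufaf4, an assembly factor of the ubiquinone module, C26 minus KPC was 0.57 and C26 minus LLC 0.69 (adjusted p = 0.303). For Ndufaf8, C26 minus KPP was 0.76 (adjusted p = 0.464). For Ndufa4l2, KPC minus LLC was 0.69 (adjusted p = 0.427), and for Ndufb4c, the processed copy of Ndufb4, it was 0.51 (adjusted p = 0.552). With 2 libraries a group, each such order rests on 4 libraries in each model, and the median listed gene rose by 0.28 in C26.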

How the results depend on the processing

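In the mean of the 4 models, 46 of 47 changes were negative with any 1 library left out, and 36 of the 39 calls were kept whichever of the 16 libraries that was (exceptions Ndufa3, Ndufaf2 and Ndufaf6). Without KPC cachectic 2 and LLC cachectic 1 the median member change in the mean was -0.42. The count was 23 (8.38% of all listed genes fell) without the C26 model. It was 12 where a log2 change of at least 0.5 was also asked, and the share of all listed genes was not counted there. Calls within a model were less stable, and their cause was not tested. A model's 4 libraries alone gave 28 lower members in KPP (5.24% of all listed genes fell), 34 lower and 2 higher in C26 (8.38% fell and 4145 genes rose) and 0 lower in LLC (0%). An adjusted p under 0.10 gave 8 lower in KPP, 1 higher in C26 and 8 lower in LLC. The share of all listed genes at that threshold was not counted, so these counts have no background. At 0.05, 23.2% of all listed genes already rose in C26. Without the variance trend LLC had 0, where 2.93% of all listed genes fell. The F test passed 7 members without KPC cachectic 2 and LLC cachectic 1, where 14.8% of all listed genes passed. Leaving out 1 library of a model at a time gave 0 to 22 lower members in KPC, 0 to 5 in C26 and 0 to 16 in LLC, 0 to 2 that differed between KPC and C26 and 0 to 1 between C26 and LLC. With a replicate block, the counts of lower members were 15 in C26, 0 in LLC and 38 in the mean. Of all listed genes 4.2%, 2.19% and 12.4% fell in the same order. Correlations of same-numbered libraries (-0.04 to 0.09) gave no sign of pairing. Over all listed genes, the block took the calls from 129 lower and 85 higher to 28 and 25 in KPP and from 440 and 411 to 263 and 214 in LLC.

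Scaling shifted the C26 medians, since the median of all genes there was 0.28 on the deposited scale and 0.030 after quantile normalization. The core median became -0.75 with quantile normalization, -0.79 with centring and -0.81 with voom weights and TMM. The accessory median became -0.68, -0.71 and -0.73, and the assembly median -0.61, -0.59 and -0.60. TMM also gave an assembly median of -0.48 in LLC, and the stricter filter gave -0.28 in KPP and -0.45 in C26. With 1 library of a model left out, the core median was -0.50 to -0.38 in KPP, -0.76 to -0.064 in KPC, -0.57 to -0.50 in C26 and -0.51 to -0.26 in LLC. The accessory median was -0.50 to -0.42, -0.59 to -0.080, -0.54 to -0.41 and -0.47 to -0.21 in the same order, and the assembly median -0.39 to -0.29, -0.48 to 0.0051, -0.43 to -0.30 and -0.57 to -0.37. Values that changed sign were those of low or little-changed members. Ndufa4l2 in C26 was -0.17 with quantile normalization, -0.15 with centring, -0.14 with TMM and -0.20 to 0.37 with 1 library left out, and its mean was 0.014 without LLC. Ndufb4 in C26 ranged from -0.35 to 0.073 and Ndufb4c from -0.25 to 0.14 with 1 library left out. Among the named members' other values, 121 lost their call in some setting, 49 gained one and 1322 did neither. Depth limits the lowest members most, such as Ndufaf2 and Ndufa4l2.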

Other observations

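Regulators of mitochondrial genes did not move as one. Of 15 listed regulators, 3 fell and 3 rose in C26, where 5.12% of all listed genes fell and 23.2% rose. Those that fell were Esrrg (-0.95 ± 0.20, limma adjusted p = 0.00957) and Esrra (-1.09 ± 0.32, adjusted p = 0.0298), orphan nuclear receptors that activate respiratory genes, and Perm1, a muscle partner of that pathway (-1.14 ± 0.38, adjusted p = 0.0417). Those that rose were Nrf1 (0.81 ± 0.19, limma adjusted p = 0.0137), Pprc1 (0.88 ± 0.20, adjusted p = 0.0122) and Yy1 (0.71 ± 0.22, adjusted p = 0.0345). The share that rose was like that of all listed genes, whose median change in C26 was 0.28. With libraries centred on their medians, 840 rather than 2794 of all listed genes rose there, and centred values of these regulators are not given here. Of the 15 regulators, 3 fell and 0 rose in LLC, against 3.66% and 3.42% of all listed genes. Ppargc1b, a coactivator of the PGC-1 family, fell there (-1.06 ± 0.20, limma adjusted p = 0.0162) beside Esrrg and Perm1. Ppargc1a had a mean change of -0.09 ± 0.19 (limma adjusted p = 0.709), with 0.87 ± 0.38 in KPP and -0.58 ± 0.38 in LLC. Its KPP levels were 7.75 and 6.03 in cachectic against 6.24 and 5.81 in control libraries, so the KPP change rests on cachectic 1.

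Among 11 genes next to complex I, 6 fell and 1 rose in the mean of the 4 models, against 13.8% and 27.3% of all listed genes. Coq7, an enzyme of ubiquinone synthesis, fell in C26 (-1.43 ± 0.36, adjusted p = 0.0160) and in the mean (-0.99 ± 0.18, adjusted p = 0.00191). Nnt, the transhydrogenase that uses the proton gradient to make NADPH from NADH, rose in the mean (0.82 ± 0.18, limma adjusted p = 0.00478). Its KPP cachectic libraries lay apart, at 6.30 and 4.72 against 3.90 and 4.27 in controls. Levels in LLC were 4.30 and 4.41 against 4.06 and 3.98. Controls lay higher in KPC (5.95 and 6.13) and C26 (5.88 and 5.92), the models not labelled C57BL/6J. KPP cachectic 1 lay above the controls of every model and apart from the other C57BL/6J libraries, so the KPP change of Nnt rests largely on it. Whether Nnt genotype differed between samples was not tested. Etfdh, which passes electrons from fat oxidation to ubiquinone, fell in KPP (-0.68 ± 0.15, adjusted p = 0.0447) and changed by -0.02 ± 0.15 in C26.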
